A study of Mus musculus with 2 samples.

Results

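The expression of 10 genes of fibroblast growth factor (FGF) signalling was followed through the cell classes of the embryonic mouse cochlea: the ligands Fgf3, Fgf8, Fgf9 and Fgf10, the receptors Fgfr1, Fgfr2 and Fgfr3, and the response genes Etv4, Etv5 and Spry2. They were taken by symbol from the feature lists of both libraries. All 10 were found in each, as 10 of the 32285 genes that were counted. The list was chosen with earlier results of these data known.

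FGF ligands are secreted proteins that bind receptor tyrosine kinases together with heparan sulfate and switch on the Ras and MAP kinase cascade. Etv4 and Etv5, transcription factors of the ETS family, are activated in FGF-exposed cells, and Spry2 is an intracellular inhibitor that such cells make as negative feedback. In the cochlea Fgf10 and Fgf3 are known from the early otic epithelium, Fgf8 from inner hair cells, Fgfr3 from the pillar and Deiters' cell precursors next to them, and Fgf9 from the epithelium that faces the mesenchyme. These roles are background from other work.

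The material was cochleae of embryos at E16.5, pooled before dissociation, 8 per genotype. One library came from wild-type embryos and 1 from embryos with Emx2Cre and Ptch1f/f alleles, called the mutant below. Both groups had the same mixed background of 129/SvEv and C57BL/6N, and neither carried another stated allele. Ptch1 encodes the receptor that holds Hedgehog signalling off, and Cre here follows Emx2, a gene of the cochlear epithelium. Pairs of values below give the wild type first and the mutant second. Emx2 stood at 19.4 and 31.9 UMIs per 1000000 in the epithelium and at 0.153 and 0.247 in the mesenchyme, and Ptch1 at 31.3 and 184 in the epithelium (UMIs are unique molecular identifiers, 1 per captured RNA molecule). Because the 3′ tags need not lie in the deleted exons, which the labels do not name, the Ptch1 count checks neither the deletion nor the labels.

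Of the wild type, 6500 barcodes were deposited, which carried 61130806 UMIs at a median of 7333. Of the mutant there were 12326, which carried 100135532 UMIs at a median of 6524.5. The lowest barcode totals were 3352 and 500 UMIs, and 38.2% of the mutant barcodes lay below the lowest wild-type one. The libraries shared 25 barcode sequences. After filters, 6108 wild-type and 8670 mutant barcodes were clustered together, without the FGF genes, and clusters were named from marker genes. Each class name below means a class that resembles that cell type by its markers.

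The epithelium-like class held 1412 wild-type and 2063 mutant barcodes. The mesenchyme-like class, which surrounds it, held 3156 and 4911. Glia-like cells numbered 435 and 450, and neuron-like cells 439 and 68. Within the epithelium, sub-clusters gave a prosensory-like class (137 and 445), a medial-like class of Kölliker's organ (560 and 904), a roof-like class that resembles Reissner's membrane (104 and 581), a lateral-like class of the outer sulcus (85 and 4) and a hair-cell-like class (67 and 0). Epithelial sub-clusters whose leading genes marked another lineage got no name and held 459 and 129 barcodes. Comparisons between the libraries used 7 classes: the whole epithelium, its prosensory-like, medial-like and roof-like parts, the mesenchyme, the glia and the neurons.

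RNA of several lineages occurred in 1 barcode more often in the wild type. A barcode was called mixed when over 5 UMIs per 10000 came from 34 genes of 6 lineages other than its own. Mixed barcodes made up 53.3% of the wild-type and 8.82% of the mutant epithelium-like class, and 1.14% and 0.957% of the mesenchyme. In the glia they were 29.9% and 20.2%, in the neurons 69.9% and 0%, and in the erythroid-like class 77% and 4%. Within the epithelium they were 46% and 4.72% of the prosensory-like, 23% and 5.2% of the medial-like and 62.5% and 11.2% of the roof-like class. Median UMIs per barcode were 7530 and 3735 in the epithelium, 7225 and 9096 in the mesenchyme, and 5694 and 22941.5 in the neurons. The part that mixed RNA and depth play in each difference between the libraries was not tested beyond the values given without mixed barcodes or above a common UMI floor.

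With 1 library per genotype, no test between genotypes exists, and genotype, library and kit cannot be told apart. Levels are UMIs of a gene per 1000000 UMIs summed over a class in 1 library (CPM), with exact Poisson 95% intervals. These, the intervals of ratios and those of shares of barcodes cover counting error only, not the spread between embryos or cells, and barcodes are not replicates of a genotype. A log2 ratio sets mutant over wild type after 1 CPM was added to each, which understates the ratio of low genes. Levels were compared within a gene across classes and not between genes.

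Fgf3, a ligand of the early ear (chr7:144838083-144844436, plus strand, GRCm38), was the scarcest member, with 79 wild-type and 6 mutant UMIs in all. In the epithelium it stood at 4.44 CPM in the wild type (3.43 to 5.65) against 0.197 CPM in the mutant, from 66 and 4 UMIs. The wild-type level was 22.6 times the mutant one (8.41 to 85.3), and 9.93 times without mixed barcodes (3.27 to 40.3). Among named classes Fgf3 was highest in the prosensory-like one, at 9.31 CPM (14 UMIs) and 0.64 CPM (3 UMIs), a wild-type excess of 14.5-fold (4.06 to 78.9). The wild-type hair-cell-like class had 3 UMIs in 3 of 67 barcodes, all of them mixed, and 0 in its 25 other barcodes. No Fgf3 UMI fell in the mesenchyme of either library.

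Much of wild-type Fgf3 came from unnamed epithelial barcodes. Sub-cluster 15, with 76 wild-type barcodes led by haemoglobin genes and by the hair cell genes Pou4f3, Grxcr1 and Lhfpl5, held 27 Fgf3 UMIs in 20 barcodes. Sub-cluster 7, with 68 wild-type barcodes led by neurofilament and other neuronal genes, held 20 Fgf3 UMIs in 18 barcodes. In these sub-clusters 60 and 59 barcodes were mixed, and the mutant had 2 and 0 barcodes in them.

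Fgf8, the ligand of inner hair cells (chr19:45736798-45742915, minus strand), totalled 108 wild-type and 49 mutant UMIs. Its epithelial level was 5.85 CPM in the wild type against 0.984 CPM in the mutant, a wild-type excess of 5.95-fold (3.63 to 10.2). Of the 87 wild-type UMIs, 63 lay in 21 barcodes of sub-cluster 15, and 1 barcode there held 16. In sub-cluster 7 a further 14 UMIs were spread over 13 barcodes. These sub-clusters thus held most of the wild-type epithelial Fgf8 UMIs, beside 2 and 0 mutant barcodes.

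Inside named classes Fgf8 rested on few UMIs. The wild-type hair-cell-like class had 7.72 CPM from 6 UMIs in 5 of its 67 barcodes. All 6 UMIs lay in its 25 barcodes that were not mixed, at 23.2 CPM (8.52 to 50.5), and no mutant barcode fell in that class. The prosensory-like class had 1.33 CPM (2 UMIs) in the wild type and 1.92 CPM (9 UMIs) in the mutant. Neuron-like cells carried 1.9 CPM (9 UMIs) and 6.76 CPM (11 UMIs), a mutant excess of 3.57-fold (1.34 to 9.73). Without mixed barcodes the wild type had 1.18 CPM (3 UMIs) and the excess was 5.74-fold (1.52 to 32.1). When only epithelial sub-clusters with at least 20 barcodes of each library were kept, a choice made after the data were seen, the log2 ratio of Fgf8 was 0.22 instead of -1.79.

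Fgf9, a ligand that signals across the tissue border (chr14:58070547-58112720, plus strand), was highest in the roof-like class of both libraries. It stood there at 82.3 CPM in the wild type (64.9 to 103) against 150 CPM in the mutant (138 to 162), a log2 ratio of 0.86. Glia-like cells followed with 65.3 and 78.2 CPM, and neuron-like cells with 46.4 and 40.6 CPM. The wild-type intervals of roof and glia overlapped, while in the mutant the roof lay above the glia and the glia above the neurons. The lateral-like class of the wild type had 36.2 CPM.

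The rest of the epithelium held less Fgf9, with more of it in the mutant library. The medial-like class stood at 13 and 27.5 CPM, a mutant excess of 2.12-fold (1.65 to 2.74). The prosensory-like class stood at 13.3 and 25.6 CPM, log2 0.90. Over the whole epithelium Fgf9 was 20.2 CPM in the wild type against 52.9 CPM in the mutant, 2.62-fold (2.31 to 2.99). That sum depends on how many barcodes each sub-class gives: over the sub-clusters with 20 barcodes of each library the log2 ratio was 0.65 instead of 1.35. The mesenchyme, known from other work as a receiver of this ligand, had only 2.44 and 2.1 CPM.

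Fgf10, a ligand of the otic epithelium and its neurons (chr13:118669791-118792115, plus strand), was highest in the prosensory-like and neuron-like classes of both libraries. In the wild type the order was prosensory-like at 228 CPM (205 to 254), neuron-like at 137, medial-like at 91.9, hair-cell-like at 57.9 and roof-like at 28.8, and the counting intervals of these neighbours did not overlap. The lateral-like class, on the opposite side of the sensory strip, had 1 UMI, 0.841 CPM. In the mutant, neuron-like cells (175 CPM) and the prosensory-like class (163 CPM, 151 to 175) had overlapping intervals, above the medial-like class at 110 CPM and the roof-like class at 72.5. Mesenchyme stood at 0.916 and 1.34 CPM and wild-type erythroid-like cells, which should lack the gene, at 6.1 CPM, or 2.94 CPM (2 UMIs) without mixed barcodes.

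Whether Fgf10 was higher or lower in the mutant varied with the class. Its log2 ratio was -0.48 in the prosensory-like class, 0.26 in the medial-like class and 1.30 in the roof-like class, where the mutant excess was 2.51-fold (1.69 to 3.88). Within single sub-clusters it was lower in the mutant in 5 of the 6 that held 20 barcodes of each library. In sub-clusters 3 and 8 of these the interval of the ratio included 1, the latter from 19 and 1 UMIs. The exception was the medial sub-cluster 1, at only 28.6 and 38 CPM, with an interval that also included 1. The prosensory sub-cluster 2 held 387 and 323 CPM, and the medial sub-clusters 16 and 17 held 253 and 219 CPM in the wild type against 173 and 141 CPM in the mutant. Thus the medial class as a whole and its sub-clusters 16 and 17 differed in sign.

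**Figure D1:**
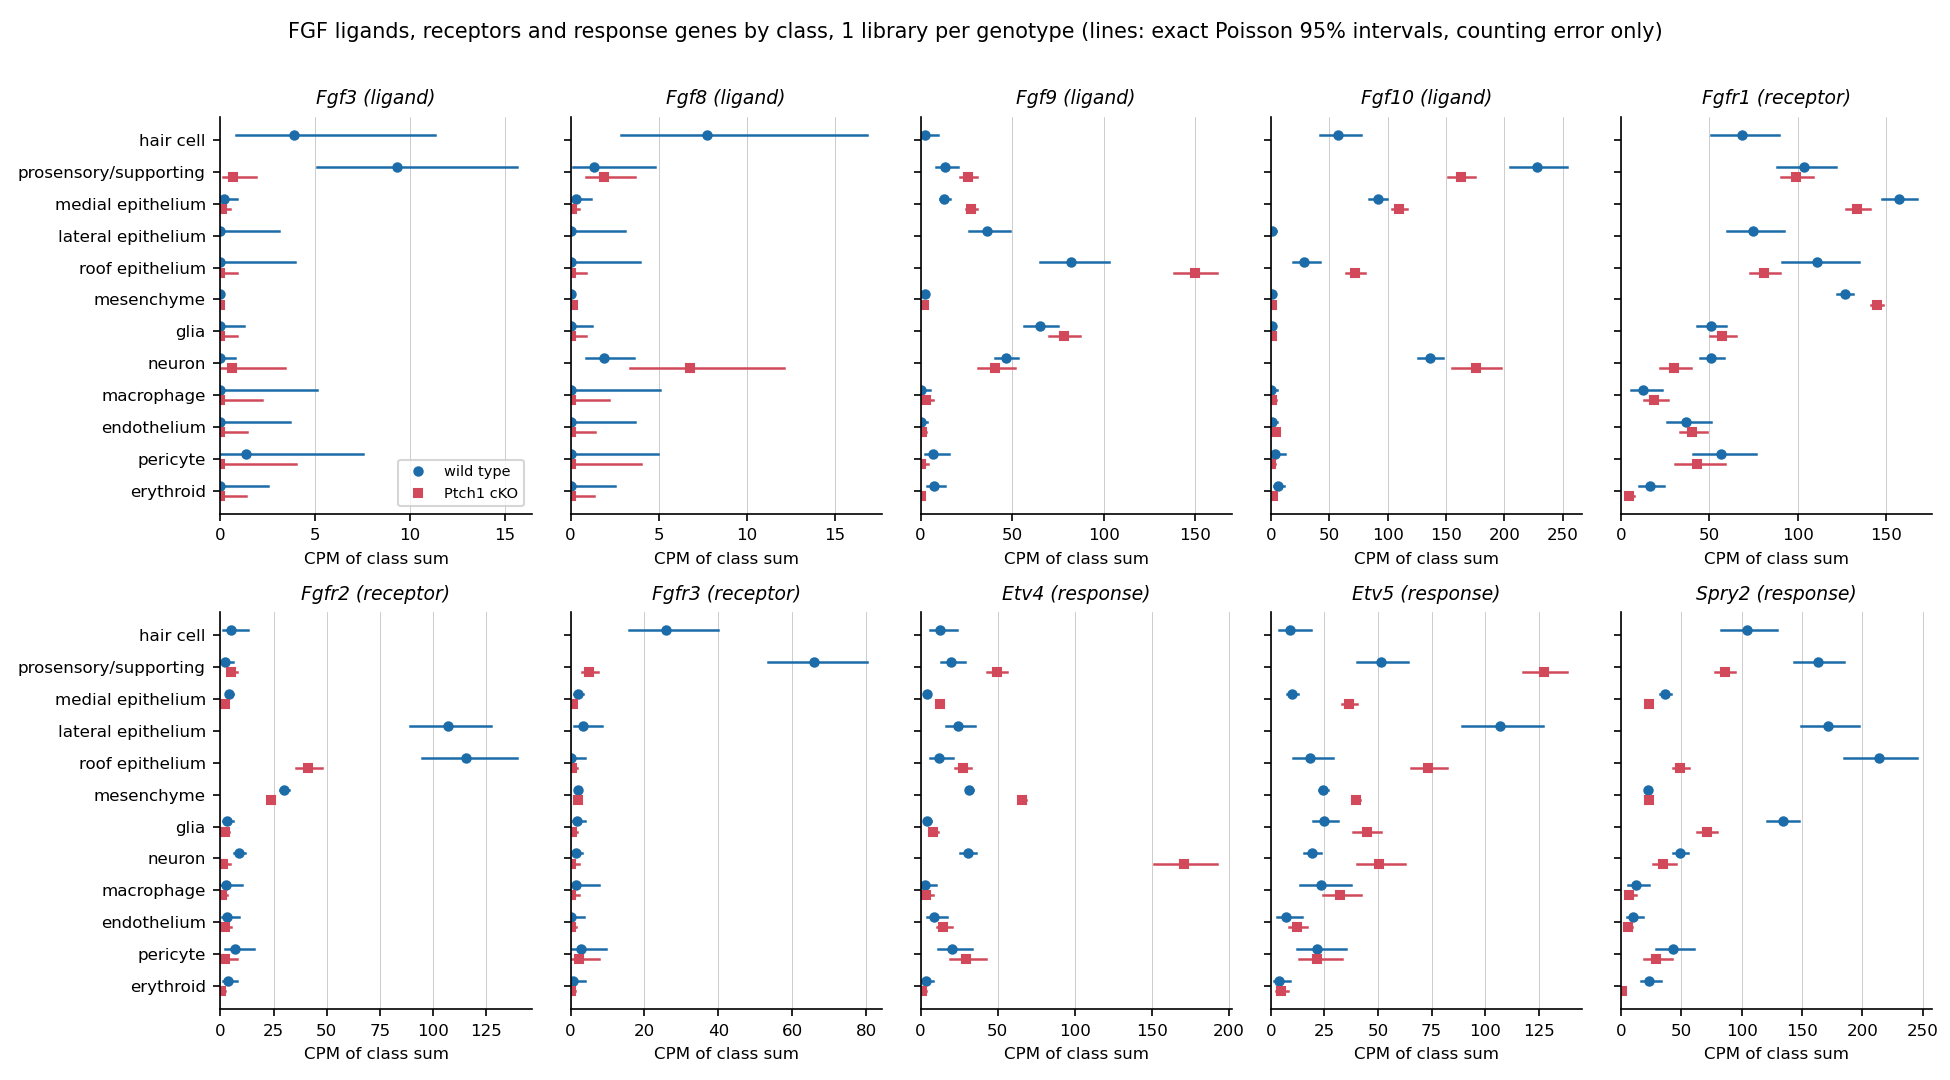
Level of each of the 10 genes on a CPM axis of its own, by cell class (rows), with circles for the wild type, squares for the mutant and lines for exact Poisson 95% intervals. Classes with under 50 barcodes in a library have no point for it. Fgf10 peaks in the prosensory-like and neuron-like classes, Fgf9 and Fgfr2 in the roof-like class, and Fgfr3 in the wild-type prosensory-like class at 65.8 CPM.

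Fgfr1, a receptor found in both epithelium and mesenchyme (chr8:25513654-25575718, plus strand), was measured in all 7 compared classes. The medial-like class had 157 CPM in the wild type against 134 CPM in the mutant, and the mesenchyme 127 and 145 CPM. Roof-like cells had 111 and 81.2 CPM and the prosensory-like class 104 and 99.2 CPM. Glia, neurons and vessel classes were lower, with 50.8 and 57.3 CPM in glia, 51.2 and 30.1 in neurons (31 and 30.1 without mixed barcodes) and 36.8 and 40.5 in endothelium-like cells. The lowest levels were 12.4 and 18.9 CPM in macrophage-like cells and 16.3 and 4.33 in erythroid-like cells. Over the whole epithelium the gene stood at 114 CPM in both libraries. Among the 10 mesenchymal clusters it ranged from 79.7 to 288 CPM in the wild type and from 96.1 to 295 CPM in the mutant.

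Fgfr2, whose epithelial isoform binds Fgf10 and Fgf3 and whose mesenchymal isoform binds Fgf9, was counted over both isoforms together (chr7:130162451-133123350, minus strand). It was concentrated in the roof-like class, at 115 CPM in the wild type (94.7 to 139) against 41.3 CPM in the mutant (35.4 to 47.8). The wild-type lateral-like class had 107 CPM, an interval overlapping that of the roof. The next class was the mesenchyme at 30.1 and 23.8 CPM. In the medial-like and prosensory-like classes, which had much Fgf10, there was little Fgfr2: the first had 4.18 and 2.08 CPM, and the second 2 CPM from 3 UMIs and 5.12 CPM from 24.

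Between libraries the roof-like Fgfr2 level was 2.8 times as high in the wild type (2.18 to 3.57). Different sub-clusters held that class: wild-type roof barcodes lay in sub-cluster 4 (89 of 104), and mutant ones in sub-clusters 11, 14 and 19 (292, 204 and 82). Fgfr2 stood at 136 CPM in sub-cluster 4, at 55.1 CPM in the deep sub-cluster 19 with a median of 19572 UMIs, and at 4.36 and 0 CPM in the shallow sub-clusters 11 and 14 with medians of 1885.5 and 1756. Above the common floor of 3352 UMIs the roof levels were 115 and 49.6 CPM. Of the roof-like barcodes, 62.5% and 11.2% were mixed. In the neurons Fgfr2 stood at 8.64 CPM (41 UMIs) and 1.23 CPM (2 UMIs), and without mixed barcodes at 1.57 and 1.23 CPM.

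Fgfr3, the receptor of pillar and Deiters' cell precursors (chr5:33721674-33737068, plus strand), had its highest levels in the prosensory-like and hair-cell-like classes of the wild type. The prosensory-like class had 65.8 CPM in the wild type (53.5 to 80.2, 99 UMIs) against 4.91 CPM in the mutant (3.11 to 7.36, 23 UMIs). The wild-type level was 13.4 times as high (8.45 to 22.1), and the log2 ratio was -3.50. Mixed barcodes made up 46% and 4.72% of this class, and their part in the Fgfr3 difference was not tested. The hair-cell-like class of the wild type had 25.7 CPM from 20 UMIs in 16 of 67 barcodes. The next class was the lateral-like one in the wild type at 3.37 CPM (4 UMIs) and the pericyte-like one in the mutant at 2.16 CPM (2 UMIs).

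Few barcodes carried the Fgfr3 signal. Sub-cluster 3, led by Tac1, Fst and Lgr5, held 98 of the 99 wild-type prosensory UMIs in 26 barcodes and 22 of the 23 mutant ones in 188 barcodes, at 183 and 6.51 CPM. One wild-type barcode alone held 30 UMIs. After each barcode was thinned to 2000 UMIs, 5.84% of wild-type prosensory-like barcodes (2.55 to 11.2) and 0.592% of mutant ones (0.0717 to 2.12) had an Fgfr3 UMI, and 11.7% and 4.27% had one before thinning. Median depths of that class were 7181 and 6221 UMIs, and 107 mutant barcodes were too shallow to thin. Among erythroid-like barcodes, with median depths of 9552 and 38547, 0 of 113 and 0 of 50 had one, which allows shares of up to 2.65% and 6%. Sub-cluster 15 of the wild type held 55 further Fgfr3 UMIs in 20 of its 76 barcodes, with 18 in 1 barcode. The unnamed wild-type sub-clusters 5 and 7 held 21 and 12.

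Etv4, an ETS factor (chr11:101769742-101785371, minus strand), stood higher in the mutant in each of the 7 compared classes. The mesenchyme had 31.5 CPM in the wild type (29.4 to 33.8) against 66 CPM in the mutant (63.7 to 68.3), 2.09-fold (1.94 to 2.26). It was higher in the mutant in 10 of 10 mesenchymal clusters, which ranged from 0 to 56.1 CPM in the wild type and from 17.2 to 129 CPM in the mutant. In clusters 2 and 15 the interval of the ratio included 1. Clusters of the same 2 libraries are not replicates. The pathway genes Plcg1 and Spred3 were also higher in the mutant in each of these clusters, while Sulf2 was split. The share of all genes that were higher in each cluster is not given here. The highest was cluster 1, with 56.1 and 129 CPM. Mixed barcodes made up 1.14% and 0.957% of this class, and Emx2, which drives the Cre, was at 0.153 and 0.247 CPM. The part of either in the difference was not tested, and where the Cre had acted was not measured.

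With all barcodes, neuron-like cells showed the widest Etv4 difference of the 7 classes, 30.6 CPM against 171 CPM, a mutant excess of 5.59-fold (4.56 to 6.88). Without mixed barcodes the values were 33.4 against 171 CPM, from 132 and 68 barcodes. The prosensory-like class stood at 20 and 49.5 CPM, the medial-like class at 3.85 and 12.2, the roof-like class at 11.8 and 27.3 and the glia at 3.98 and 7.84. Without mixed barcodes the medial-like values were 2.26 and 12.2 CPM (5.38-fold) and the roof-like ones 5.63 CPM from 3 UMIs and 30.8 CPM (5.47-fold), beside 5.12-fold in the neurons. Over the whole epithelium Etv4 was 11.6 and 24.5 CPM, log2 1.01. This sum moved with the clustering: the log2 ratio was 0.17 at Leiden resolution 2, where the epithelium-like class held 1154 and 1731 barcodes instead of 1412 and 2063, and 1.69 without mixed barcodes.

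Thinned to 2000 UMIs, 5.54% of wild-type mesenchymal barcodes (4.77 to 6.4) and 10.2% of mutant ones (9.37 to 11.1) had an Etv4 UMI, and 18.7% and 36.8% had one before thinning. The share in wild-type erythroid-like barcodes, of which 77% were mixed, was 1.77%.

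Etv5, the paralog of Etv4 (chr16:22381309-22439719, minus strand), had its highest wild-type level in the lateral-like class, at 107 CPM (89.1 to 127). The prosensory-like class followed with 51.2 CPM, and glia (24.9) and mesenchyme (24.6) had overlapping intervals below it. In the mutant the prosensory-like class was highest, at 128 CPM (118 to 138), above the roof-like class at 73.5. With all barcodes, the roof-like class differed most of the 7 compared classes, 18.2 against 73.5 CPM, 4.04-fold (2.49 to 7.03). Of its barcodes, 62.5% and 11.2% were mixed.

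The same direction held in the other classes with a comparison. Medial-like cells had 9.96 and 36.6 CPM of Etv5 (6.42 and 35.9 without mixed barcodes), the whole epithelium 25.4 and 65.5, and the neurons 19.2 and 50.4. The mesenchyme had 24.6 and 39.9 CPM, 1.62-fold (1.48 to 1.78). Etv5 was higher in the mutant in 10 of 10 mesenchymal clusters, as Plcg1 and Spred3 also were. In clusters 5, 9 and 15 the interval of the ratio included 1. Glia had 24.9 and 44.7 CPM, and both glial clusters were higher in the mutant. All 6 epithelial sub-clusters with 20 barcodes of each library had more Etv5 in the mutant, but by unequal amounts. Sub-cluster 8, unnamed and nearly all of mixed barcodes, rested on 24 and 4 UMIs, with a ratio interval of 0.463 to 5.34. In sub-cluster 3, where wild-type Etv5 was already 120 CPM, the mutant had 149 CPM, 1.25-fold (0.961 to 1.65), while sub-cluster 2 had 4.78 and 67.8 CPM and medial sub-clusters 16 and 17 had 4.25 and 2.7 CPM against 55.9 and 43.7.

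Spry2, the feedback inhibitor (chr14:105891947-105896819, minus strand), stood the other way round from Etv4 and Etv5 in the epithelium and the glia. It was highest in the wild-type roof-like class, at 214 CPM (185 to 245), where the mutant had 49.2 CPM (42.8 to 56.3). That was a wild-type excess of 4.34-fold (3.56 to 5.29), and above the common UMI floor the levels were 214 and 56.6 CPM. Mixed barcodes made up 62.5% and 11.2% of the roof-like class, and their part in this difference was not tested. The sub-clusters again differed: sub-cluster 4 of the wild type had 225 CPM, and mutant sub-clusters 11, 14 and 19 had 10.2, 15.9 and 62.5 CPM. Wild-type lateral-like (172 CPM), prosensory-like (163) and glia-like cells (134) followed, each with an interval overlapping that of its neighbour.

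The prosensory-like class had 163 and 86 CPM of Spry2, a wild-type excess of 1.89-fold (1.61 to 2.23). Glia had 134 and 71 CPM, 1.89-fold (1.62 to 2.2), with 151 and 76.2 CPM in cluster 13 and 99.7 and 59.9 CPM in cluster 14. Medial-like cells had 36.6 and 22.9 CPM. The mesenchyme had 22.1 and 23.4 CPM, with 5 clusters higher and 5 lower in the mutant. Over the whole epithelium the level was 102 CPM in the wild type against 43.5 CPM in the mutant, and 76.4 and 42.5 CPM without mixed barcodes, a log2 ratio of -0.83 instead of -1.21. Neuron-like cells had 49.1 and 35 CPM, but 27.5 and 35 CPM without mixed barcodes. Erythroid-like cells of the wild type carried 23.7 CPM and those of the mutant 1.08 CPM.

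Of the 6 epithelial sub-clusters with 20 barcodes of each library, Spry2 differed most between the libraries in sub-cluster 3. There it was 301 CPM in the wild type against 100 CPM in the mutant, 0.332 of the wild-type level (0.274 to 0.403), beside the Etv5 values of 120 and 149 CPM. In the other 5 sub-clusters Spry2 lay within 2-fold, with 39.8 and 51.7 CPM in sub-cluster 2 and 32.2 and 20.3 CPM in sub-cluster 1.

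**Figure D2:**
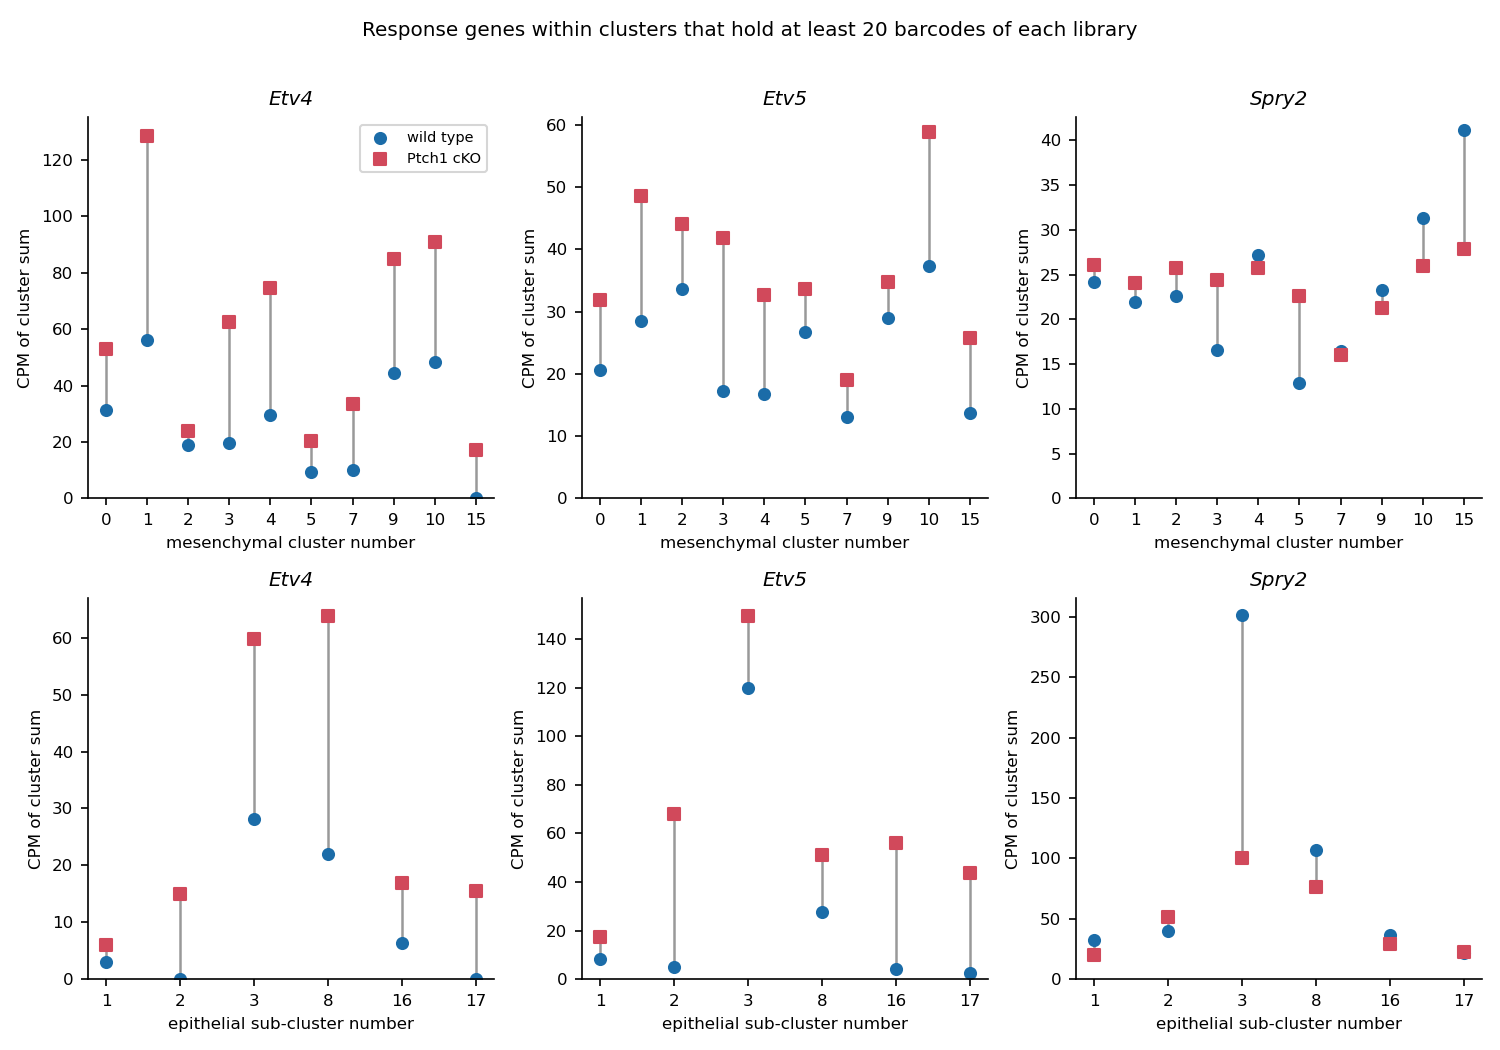
Level (CPM of the cluster sum) of Etv4, Etv5 and Spry2 in each of 10 mesenchymal clusters (top) and 6 epithelial sub-clusters (bottom) with at least 20 barcodes of each library. Circles are the wild type, squares the mutant, and a grey line joins both values of a cluster. Etv4 and Etv5 are higher in the mutant in 10 of 10 mesenchymal clusters and 6 of 6 epithelial sub-clusters, and Spry2 is split 5 to 5 in the mesenchyme. Clusters of the same libraries are not replicates, and for some of them the interval of the ratio includes 1. The share of all genes higher in each cluster is not given.

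**Figure D3:**
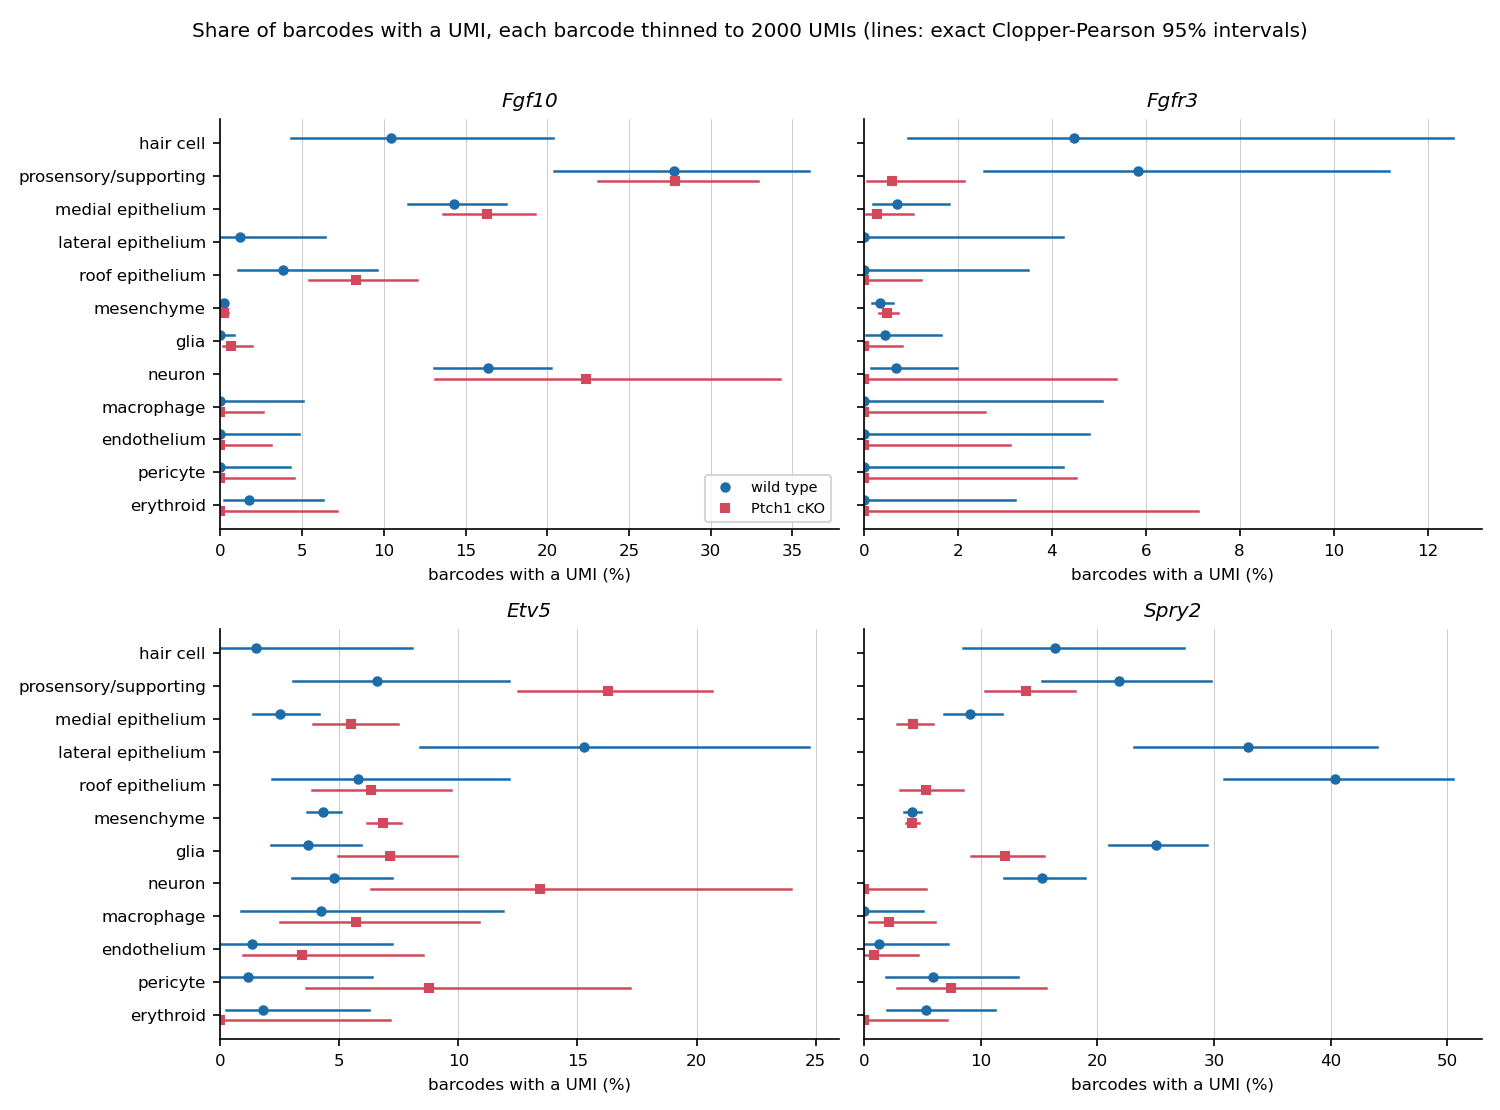
Percent of barcodes with a UMI of Fgf10, Fgfr3, Etv5 or Spry2 after each barcode was thinned to 2000 UMIs, by class (rows) and library (circles wild type, squares mutant), with exact Clopper-Pearson 95% intervals as lines. Spry2 in the roof-like class reads 40.4% and 5.32%, and Etv5 in the prosensory-like class 6.57% and 16.3%.

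At 2000 UMIs per barcode, the shares with Spry2 were 40.4% (30.9 to 50.5) and 5.32% (3.07 to 8.49) in the roof-like class, where 69.2% and 10.5% had it before thinning. Of the mutant roof barcodes, 280 were too shallow to thin, and median depths were 5838.5 and 2063 UMIs. Glial shares were 25.1% and 12.1%, and 5.31% of wild-type erythroid-like barcodes had a Spry2 UMI. For Fgf10, 27.7% (20.4 to 36) and 27.8% (23.1 to 32.9) of prosensory-like barcodes had a UMI, against 1.77% of wild-type erythroid-like ones.

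Promoter windows from RefSeq are shown for 3 members that the values above turn on. These are Fgfr3, which had the widest log2 ratio in the prosensory-like class, and Etv5 and Spry2, 2 response genes that differed in opposite directions. Each is a stretch of the 250 bases upstream of an annotated start (GRCm38.p6), 5′ to 3′ on the gene's strand, cut where GENCODE places an exon. Capitals mark GGAAGT, the core of sites that ETS factors bind. The Fgfr3 window is chr5:33721474-33721673 (200 bases), the windows of the upstream and downstream Etv5 starts are chr16:22439720-22439820 (101 bases) and chr16:22438369-22438618 (250 bases, in an intron of GENCODE's gene), and the Spry2 window is chr14:105896820-105897069 (250 bases).
Fgfr3: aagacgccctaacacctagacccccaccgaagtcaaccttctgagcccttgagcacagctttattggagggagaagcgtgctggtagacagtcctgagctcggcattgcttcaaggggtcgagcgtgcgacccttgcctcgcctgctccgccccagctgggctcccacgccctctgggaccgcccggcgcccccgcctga
Etv5 upstream start: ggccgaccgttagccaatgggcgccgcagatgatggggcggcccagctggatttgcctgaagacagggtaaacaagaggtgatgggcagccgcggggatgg
Etv5 downstream start: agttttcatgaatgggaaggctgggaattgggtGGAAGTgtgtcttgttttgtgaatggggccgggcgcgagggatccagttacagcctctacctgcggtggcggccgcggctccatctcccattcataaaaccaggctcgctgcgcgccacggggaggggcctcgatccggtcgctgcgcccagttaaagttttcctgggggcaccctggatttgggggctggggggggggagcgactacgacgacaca
Spry2: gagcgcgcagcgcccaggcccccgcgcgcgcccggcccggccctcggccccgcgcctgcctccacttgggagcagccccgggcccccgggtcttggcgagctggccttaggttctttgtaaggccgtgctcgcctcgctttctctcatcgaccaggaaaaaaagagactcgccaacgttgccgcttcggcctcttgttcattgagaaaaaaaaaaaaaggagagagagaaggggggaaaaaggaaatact
RefSeq windows were found for 7 of the 10 members, 9 windows in all. GGAAGT or its reverse ACTTCC occurred in 1 of these 9, at the downstream Etv5 start, and in 19.7% of all 32851 windows of the same length. The longer CCGGAAGT, which contains GGAAGT, and the Gli motif GACCACCCA occurred in none of the 9 on either strand, against 2.88% and 0.225% of all windows. A match is a description of letters and not a bound site.

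Read against all genes, the epithelium-like class had 3 members at 2-fold or more higher in the mutant (Fgf9, Etv4 and Etv5), where 1.98% of 16127 genes were, and 5 lower (Fgf3, Fgf8, Fgfr2, Fgfr3 and Spry2), where 5.5% were. Without mixed barcodes these were 3 and 4 of 10, with Spry2 no longer at 2-fold, against 2.87% and 3.01% of genes. The median log2 ratio of the 10 members was -0.50, and that of all genes 0.03. The mesenchyme had 1 of 8 measured members higher (Etv4, background 0.486%) and 0 lower (background 0.587%). Etv4 sat close to the 2-fold limit there, at log2 1.04, and under median-of-ratios scaling, at 0.99, no member passed. Glia had 0 higher and 0 lower of 6, where 2.17% and 1.48% of genes were.

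The neuron-like class had 3 of 8 measured members higher (Fgf8, Etv4 and Etv5, background 2.69%) and 1 lower (Fgfr2, background 13.6%). The prosensory-like class had 3 of 10 higher (Fgfr2, Etv4 and Etv5, background 6.3%) and 2 lower (Fgf3 and Fgfr3, background 4.76%). The medial-like class had 3 of 8 higher (Fgf9, Etv4 and Etv5, background 3.58%) and 0 lower (background 2.78%). The roof-like class had 3 of 7 higher (Fgf10, Etv4 and Etv5, background 5.12%) and 2 lower (Fgfr2 and Spry2, background 10.2%). Etv4 and Etv5 were thus past 2-fold higher in each epithelial class compared and in the neurons, and Fgf3 and Fgfr3 past 2-fold lower in the whole epithelium and its prosensory-like part.

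Wild-type and mutant prosensory-like barcodes also came from partly different sub-clusters: 2, 3 and 13 held 53, 26 and 55 wild-type barcodes, and 3, 20 and 2 held 188, 175 and 82 mutant ones. Medial-like barcodes lay in sub-clusters 0, 1 and 6 in the wild type (207, 123 and 173) and in 12, 1, 17 and 16 in the mutant (296, 216, 203 and 182). A sub-cluster mostly of 1 library may be that library and not a type.

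**Figure D4:**
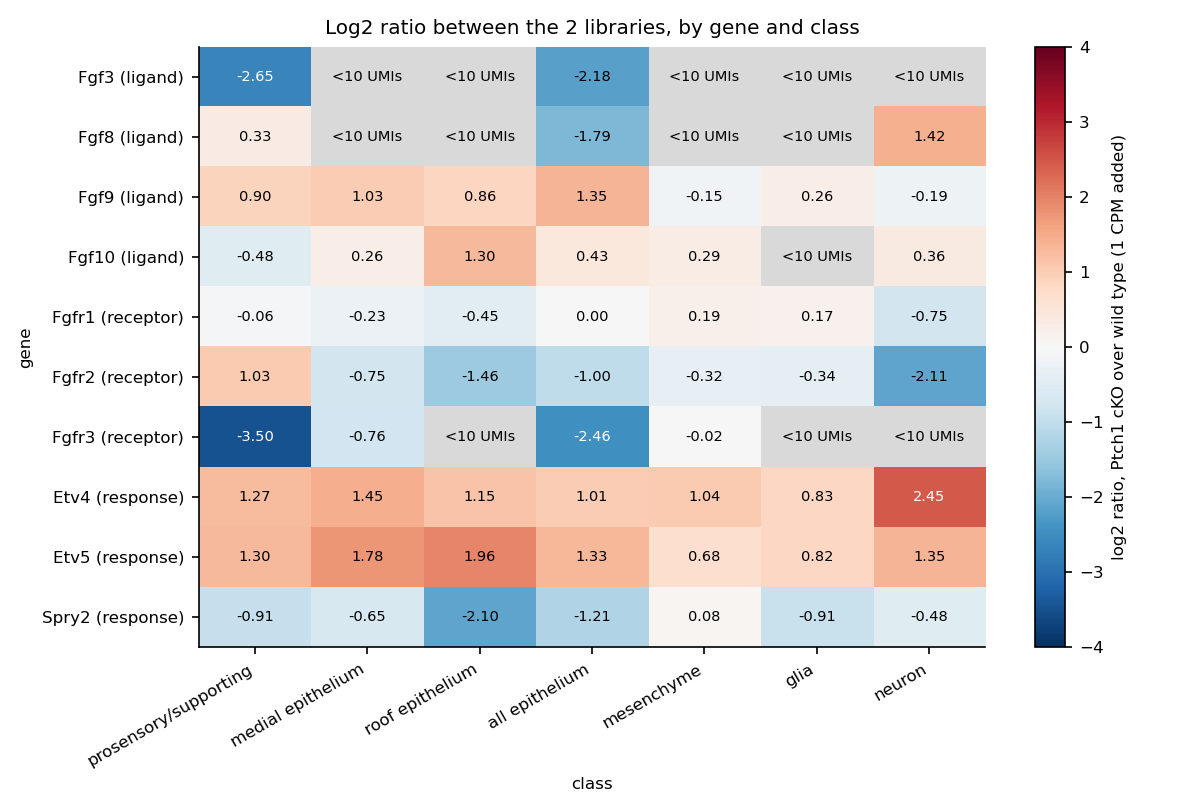
Log2 ratio of mutant over wild-type CPM (1 CPM added) as colour and printed value, for the 10 genes (rows) in the 7 compared classes (columns), with all barcodes. Grey cells had under 10 UMIs over both libraries. Etv4 and Etv5 lie above 0 in each class, Fgfr3 reaches -3.50 in the prosensory-like class, and Spry2 reaches -2.10 in the roof-like class.

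The other genes of the pathway were taken from fixed lists and counted in the same way, to be read beside the shares of all genes (1.98% higher and 5.5% lower in the epithelium, 6.3% higher in the prosensory-like and 3.58% in the medial-like class). Among 14 other ligands, 9 were measured in the epithelium, with 1 higher, Fgf20, the ligand of prosensory growth, and 0 lower. In the prosensory-like class Fgf20 was 19.3 CPM in the wild type against 114 CPM in the mutant, in the medial-like class 0.482 and 5.16 CPM, and in the roof-like class 0 and 14.5 CPM. Mesenchymal Fgf18, a ligand of skeletal tissue, was 10.1 and 6.72 CPM. Of 6 other receptors and coreceptors, 4 were measured in the epithelium, with 0 higher and 1 lower, Fgfr4 at 7.13 and 2.61 CPM. Epithelial sub-clusters 1, 8 and 17 had more Fgfr4 in the mutant and sub-clusters 2, 3 and 16 less. Each ratio interval included 1. Mesenchymal cluster 7 had 41.9 and 50.3 CPM. Mixed barcodes made up 53.3% and 8.82% of the epithelium, and their part in the Fgfr4 difference was not tested.

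Of 9 other response and feedback genes, 8 were measured in the epithelium, with 1 higher and 0 lower. That gene was Spred2, an inhibitor of the Ras and MAP kinase cascade, at 12.9 and 31.3 CPM, with 13.9 and 41.3 CPM in the roof-like class. In the prosensory-like class 2 of 8 were higher, Spred2 at 16.6 and 38.4 CPM and Spred3 at 11.3 and 27.7 CPM. The medial-like class also had 2 of 8 higher, Spred2 at 6.75 and 23.9 CPM and Spry4 at 2.41 and 7.43 CPM. Spry1, a relative of Spry2, was 11.9 and 24.5 CPM in the mesenchyme, and 5.64 and 14.5 CPM in the glia. Dusp6, a phosphatase that inactivates ERK, was 79.1 and 51.5 CPM in the roof-like class, log2 -0.61. The list's median log2 ratio was 0.60 in the epithelium, 0.36 in the mesenchyme, 0.83 in the medial-like class and 0.44 in the prosensory-like class, where all genes had 0.03, 0.05, 0.05 and 0.08.

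Of 8 receptor-proximal transducers, 0 passed 2-fold in either direction in the epithelium or the mesenchyme. The shares of all genes there were 1.98% higher and 5.5% lower, and 0.486% and 0.587%, so a count of 0 of 8 is near the background. In the prosensory-like class 1 of 8 was higher (background 6.3%), Plcg1, a phospholipase recruited by FGF receptors, at 14.6 and 34.8 CPM. Of 8 heparan sulfate modifiers, 1 was higher in the epithelium, the sulfotransferase gene Hs6st2 at 22.3 and 50.6 CPM. Sulf1, which encodes an enzyme that trims sulfate from heparan chains, was 95.8 and 244 CPM in the prosensory-like class. Of 4 intracellular FGF homologous factors, 0 were higher and 1, Fgf12, was lower in the epithelium, with a log2 ratio of -1.23. Glial cluster 13 had 36.9 and 31 CPM of Fgf12. Epithelial sub-clusters 1, 2, 3, 8, 16 and 17 held 1, 0, 0, 1, 0 and 1 wild-type Fgf12 UMIs. Their mutant UMIs were 1, 0, 3, 0, 2 and 1. In the epithelium 53.3% and 8.82% of barcodes were mixed, and the part of these in the Fgf12 difference was not tested.

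The genes whose levels ran most like those of a member were found over 22 points, each a class in 1 library, among 14485 genes. Points of 1 library share depth and mixed RNA, so the correlations of log2(CPM + 1) are descriptions. The points hold only 24 UMIs of Fgf3 and 46 of Fgf8, under the minimum of 100 set for the genes ranked, and the unnamed sub-clusters 7 and 15 lie outside them. Fgf3 ran with Fgfr3 (Pearson r 0.86), Pou4f3 (0.83) and Atoh1 (0.82), both transcription factors of hair cells, and Fgfr3 itself with Pou4f3 (0.87), Tesc (0.84) and Shisal2b (0.83). Fgf8 ran with Thsd7b (0.93), Nhlh1 (0.92) and Insm1 (0.92), and Fgf10 with Prr15 (0.95) and Adprhl1 (0.92). Fgf9 ran with Zdhhc2 (0.90), Rxrg (0.87) and Ppp2r2b (0.87).

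Fgfr1 ran with Ift80 and Twsg1 (0.94 each) and Fgfr2 with Thsd4 (0.87), Col14a1 (0.86) and Sbspon (0.86). Etv4 ran with Ube2e3 (0.88), Rbfox2 (0.87) and Inafm1 (0.83), and Etv5 with Stac3 (0.83), Gm19325 (0.81) and E130102H24Rik (0.80). Spry2 ran with Ephb6 (0.91), Creld1 (0.89) and Gpc1 (0.86).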

How the data were processed

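Single-cell suspensions of cochleae gave 1 library per genotype. The authors deposited unnormalized UMI counts for each gene in each barcode. Cell Ranger 6.0.0 and mm10 are named per the submitters' processing notes, while per the file headers the versions were 6.0.0 (wild type) and 5.0.1 (mutant). Per the labels the protocol names 1 kit version for both libraries and the sample descriptions name different ones. The method that called barcodes as cells was not given in the sources that were used.

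Filters required 1000 UMIs, 500 genes and a mitochondrial share of no more than 10%, which left 6440 wild-type and 9373 mutant barcodes. Scrublet called 0 doublets in each, so it had not worked, and the top-scored 332 and 703 barcodes were removed (0.8% per 1000 barcodes). Both were then clustered jointly in scanpy 1.11.5 (igraph 0.11.9, Python 3.11.15) (2000 variable genes, 30 components, 15 neighbours, Leiden resolution 1), leaving out all listed FGF genes, with no correction between libraries. Clusters were named from marker lists (at least 3 markers at 10 CPM), and stayed unnamed where another class had more markers among the top 10 genes, or where they were shallow (median under 0.333 of their library's) and led by none of their own markers. In all, 276 wild-type and 733 mutant barcodes stayed unnamed, besides the unnamed sub-clusters, which remained in the epithelium-like class.

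Counts were summed per class and library and given as CPM with exact Poisson 95% intervals (scipy 1.17.1). Shares have Clopper-Pearson intervals, and a share of 0 the limit of 3 counts. Ratios were computed where both libraries together had at least 10 UMIs, and 2-fold counts use log2(CPM + 1). All 10 members are named. A gene of the wider lists is named where it had at least 30 UMIs and the largest or smallest ratio of its list or at least 2-fold, though not each such gene is given. Spry1 and Sulf1 values and the epithelial sub-clusters singled out were chosen after their values were seen. Genes with a like pattern are the 3 highest correlations among genes with at least 100 UMIs, some of which are not reported here. The ratio and its interval were tested only on Poisson counts simulated from the epithelial sums. These hold counting error but no mixed RNA, shift of sub-classes or library effect, so the test cannot speak to those. Gene positions came from GENCODE vM21. The members, lists and markers were chosen with earlier results of these data known, and the naming rule and the gene panel for mixed barcodes were settled after the data were seen.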

Additional observations from a re-analysis of the deposited data

Results flagged for a closer look

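Some ratios pointed in opposite directions in different classes of the same pair of libraries. Fgf8 had a log2 ratio of -1.79 in the epithelium and 1.42 in the neuron-like class, from 87 and 20 UMIs in the first and 9 and 11 in the second. Fgfr2 had -1.002 in the epithelium, -2.11 in the neuron-like class and -1.46 in the roof-like class, against 1.03 in the prosensory-like class, where the UMIs were 3 and 24 and the interval of the ratio ran from 0.78 to 13.3. With 1 library per genotype, these differences between classes were not tested.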

How the results depend on the processing

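No paired analysis was possible because each genotype had 1 library. Of 8 members at 2-fold in the epithelium, 4 passed with 5 CPM added before the ratio, 5 at Leiden resolution 2 and 5 over clusters with 20 barcodes of each library, an alternative chosen after the data were seen, as was leaving out mixed barcodes above a UMI floor. Over those shared clusters the Fgf8 ratio in the epithelium changed sign, to 0.22. The other settings gave 6 to 8. The mesenchymal count of 1 (Etv4) was 0 under median-of-ratios scaling and 0 with 5 CPM added. The glial count was 0 under each setting. Of 26 values at 2-fold over 7 classes, 24 of 25 passed without mixed barcodes, 25 of 26 above the UMI floor, 20 of 25 at resolution 2, 16 with 5 CPM and 17 of 21 over shared clusters, with the direction kept except for Fgf8 there. The class with the highest level was the same in 13 of 20 cases at resolution 2 and in 15 of 20 without mixed barcodes. Classes under 50 barcodes were left out of this ranking. Without mixed barcodes the wild-type roof-like class had 39 and the hair-cell-like class 25. Wild-type Fgf8, Fgf9, Fgfr2 and Spry2, highest in these classes with all barcodes, thus had to change class, whatever their levels. Values without doublet removal were not computed for the epithelial sub-classes. The causes of the other changes were not tested. Depth limits Fgf3 and Fgf8 most, with 79 and 108 UMIs in the wild type and 6 and 49 in the mutant.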
